A study of Mus musculus with 12 samples.

Results

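Chromosome 15 carried 1861 of the 31891 regions at which acetylated histone H4 (H4ac) was listed in C2C12 cells, an established line of mouse myoblasts. Every peak that the 6 deposited peak lists place on chromosome 15 (mm9) was taken, whatever its values, and peaks that overlapped or touched were merged into 1 region. The cells had received lentivirus carrying either MLX-WT or MLX-DN, and each group is represented by 3 H4ac ChIP-seq libraries made with a rabbit antibody against acetylated H4. The labels do not spell out DN, and one field describes these samples as MLX down. They also mention empty vector and non-targeting shRNA controls, which are no group of the comparison, and the peak names carry a tag for glucose. Both constructs were delivered by the same kind of virus into the same line, and the labels name neither the promoter that drives them nor the level of MLX reached. The labels do not say that replicates came from separate cultures, and p-values measure the spread between these libraries, which may be technical.

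Acetylation of the histone H4 tail marks chromatin that is open to transcription, and in ChIP-seq it appears as peaks at active promoters and enhancers. MLX is a DNA-binding protein that pairs with MondoA and ChREBP, factors that turn on genes when glucose metabolites rise, and MondoA is the partner most abundant in muscle. In such an experiment a peak is judged against a control library, commonly sheared chromatin that was not immunoprecipitated. The number of control reads found under a region therefore decides, along with the ChIP reads, whether a peak is listed and with what fold. The question asked here was whether the difference between the groups on chromosome 15 is the same along its length or is confined to segments.

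The lists hold 15201, 24811 and 16898 peaks for MLX-DN replicates 1, 2 and 3, against 5385, 13652 and 9422 for the MLX-WT replicates. ChIP depth, recovered from the lists, ran from 3.299 to 3.90 reads per 250 bp window over the 6 libraries. No mm9 annotation was used here, so regions are given by position without gene names, and the cell type was not checked against marker genes. RefSeq (GRCm38) places 776 of 21631 protein-coding genes on chromosome 15, or 3.59%. Control background is known only beneath listed peaks.

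H4ac peaks on chromosome 15 numbered 843, 1433 and 1009 for MLX-DN replicates 1, 2 and 3, against 426, 980 and 684 in the MLX-WT replicates. The groups overlapped, since MLX-WT replicate 2 listed more peaks than MLX-DN replicate 1. The means were 1095 ± 304 and 697 ± 277 (SD, n = 3), a geometric mean ratio of 1.62 (exact permutation test, two-sided, p = 0.20; adjusted p = 0.28 over 14 tests of chromosome 15 values). When each list was reduced to its 5385 strongest peaks, the order turned round. Chromosome 15 then held 422 ± 8.14 peaks in MLX-WT, and in MLX-DN the number was 322 ± 11.8 (SD, n = 3). The exact permutation test gave p = 0.10, the smallest value that 3 against 3 libraries allow.

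As a part of the whole list, chromosome 15 was smaller in every MLX-DN library. It held 5.55%, 5.78% and 5.97% of all peaks for MLX-DN replicates 1, 2 and 3, against 7.91%, 7.18% and 7.26% in the MLX-WT replicates. The groups did not overlap, with a ratio of 0.774 (exact permutation test, two-sided, p = 0.10, adjusted p = 0.233). All 6 shares were above the chromosome's 3.59% of protein-coding genes. Listed peaks covered 421, 789 and 522 kb of the chromosome in the MLX-DN replicates and 190, 511 and 327 kb in the MLX-WT replicates. The ratio of covered length was 1.76 (exact permutation test, p = 0.20), with mean peak widths of 522 ± 25.9 bp and 481 ± 38.5 bp. In lists of equal length the ratio of covered length was 1.05 (exact permutation test, p = 0.70).

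The regions were laid out unevenly along the chromosome. The first began at 3220659 and the last ended at 103328145. The widest gap between neighbouring regions, 10.5 Mb, ran from 12888466 to 23416596. Of 21 bins of 5 Mb counted from the first base, those at 15 to 20 Mb and 45 to 50 Mb held no peak in any library. The bin at 20 to 25 Mb held 9 peaks over the 6 lists. The bin at 75 to 80 Mb was the densest, with 172, 294 and 216 peaks in the MLX-DN replicates and 88, 202 and 140 in the MLX-WT replicates. This bin alone held between 20.4% and 21.4% of a library's chromosome 15 peaks, in both groups. The bins from 80 to 85, 95 to 100 and 100 to 105 Mb followed, with 532, 570 and 632 peaks over all lists. In the plot of peaks by bin, every library shows the same dense distal end and the same empty stretches.

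**Figure D1:**
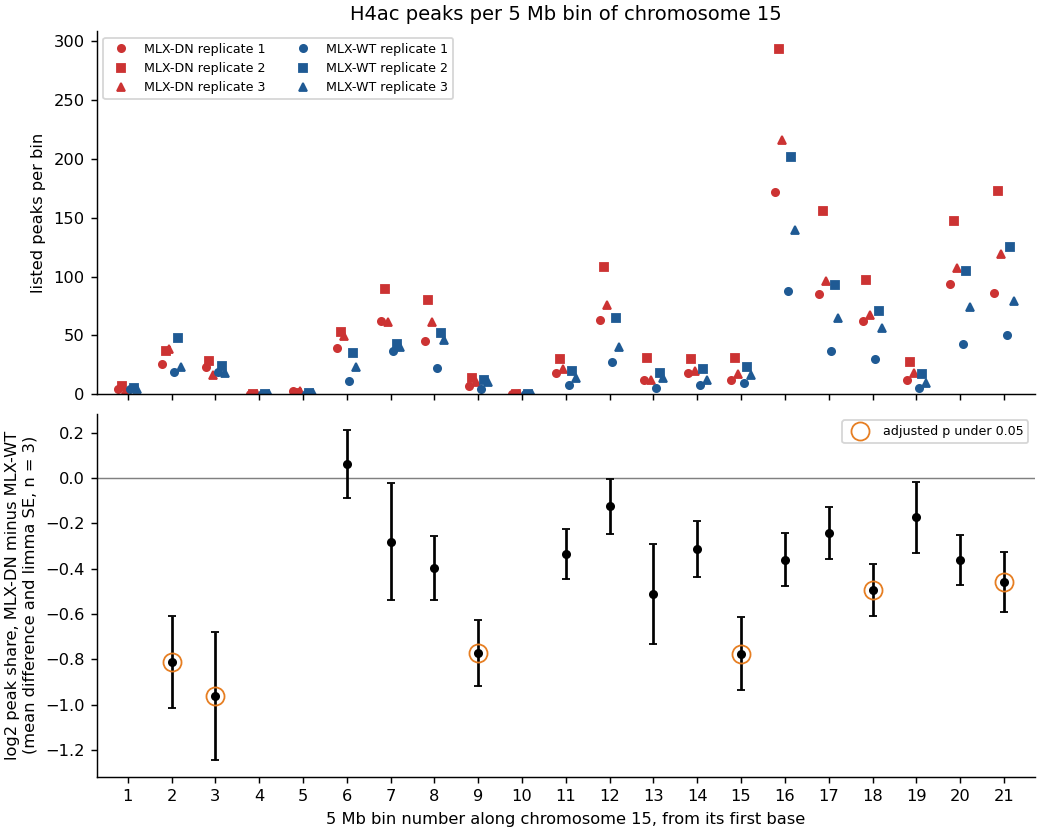
Upper panel: number of listed H4ac peaks in each 5 Mb bin of chromosome 15, 1 point per library (colour for group, shape for replicate). Lower panel: log2 of the bin's part of all peaks of the library, MLX-DN minus MLX-WT, with limma standard errors over 3 libraries per group; 16 of 17 tested bins lie below 0 and the 6 ringed bins have an adjusted p under 0.05.

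The lower share in MLX-DN was found along most of the chromosome. Among 17 bins with at least 5 peaks per library on average, 16 had a lower mean share of the library's peaks in MLX-DN, with a median ratio of 0.778 against 0.955 over all 434 bins tested. In 12 of the 17 every MLX-DN library lay below every MLX-WT library, a pattern found in 24.2% of bins over the genome. By limma with Benjamini-Hochberg adjustment, 6 of the 17 fell, against 10.6% of bins over the genome, and 0 rose, against 9.91% (adjusted p under 0.05). At an unadjusted limma p under 0.05 the number was 12 of the 17 bins of chromosome 15, against 175 of 434 over the genome.

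The 2 lowest ratios of peak share were at the proximal end. In the bin at 10 to 15 Mb, which borders the wide gap, the libraries listed 23, 28 and 16 peaks in MLX-DN against 19, 24 and 18 in MLX-WT, numbers that overlap although the MLX-DN lists are longer as a whole. The share there fell by 0.96 ± 0.28 on the log2 scale (limma SE, adjusted p = 0.0493). At 5 to 10 Mb the numbers were 26, 37 and 38 against 19, 48 and 23, and the share fell by 0.81 ± 0.20 (limma adjusted p = 0.0285). At 70 to 75 Mb they were 12, 31 and 17 against 9, 23 and 16, a fall of 0.78 ± 0.16 (limma adjusted p = 0.0243). At the other extreme, the bin at 25 to 30 Mb listed 39, 53 and 49 peaks in MLX-DN against 11, 35 and 23 in MLX-WT, a ratio of shares of 1.04 (log2 0.06 ± 0.15, limma adjusted p = 0.794). The ratio was 0.917 at 55 to 60 Mb and 0.886 at 90 to 95 Mb, and neither passed the test (limma adjusted p = 0.485 and 0.450). The 6 bins called became 0, 1 and 0 without MLX-DN replicates 1, 2 and 3 and 3, 4 and 2 without MLX-WT replicates 1, 2 and 3, and 0 at a −log10 q of at least 5 or in lists of equal length, so which bins pass is not settled by these libraries.

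Control background on chromosome 15 was lower in MLX-DN. It was read at the 253 chromosome 15 regions listed by all 6 libraries, 13.6% of its regions against 9.74% over the genome, and divided by the mean over all 3107 such regions of the same library. Relative to that mean it stood at 1.16, 1.15 and 1.12 for MLX-DN replicates 1, 2 and 3, against 1.46, 1.47 and 1.41 in the MLX-WT replicates. Both groups thus had more control reads here than at their average shared region, and the groups did not overlap. The ratio was 0.791 (exact permutation test, two-sided, p = 0.10, adjusted p = 0.233). The ChIP reads at the same regions, also relative to the library mean, came to 1.06 ± 0.00474 for MLX-DN against 1.29 ± 0.0127 for MLX-WT (SD, n = 3), a ratio of 0.822 (exact permutation test, p = 0.10, adjusted p = 0.233).

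The scale matters for this result. In reads per 250 bp window the mean control background at the 253 regions was 11.9, 9.83 and 13.0 in the MLX-DN replicates and 13.4, 11.9 and 12.0 in the MLX-WT replicates, and these overlap (ratio 0.925, exact permutation test, p = 0.40, adjusted p = 0.431). At all 3107 shared regions the means were 10.1 ± 1.56 for MLX-DN against 8.61 ± 0.544 for MLX-WT (SD, n = 3). Divided by the genome-wide control level of each list in place of the mean at shared regions, the chromosome 15 ratio was 0.950 (exact permutation test, p = 0.70). The lower background in MLX-DN thus holds relative to other listed regions of the same library.

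Along the chromosome, relative control background was lower in MLX-DN in each of the 16 bins with at least 3 shared regions. In 14 of them every MLX-DN library was below every MLX-WT library, against 16.1% of bins over the genome. By limma 10 of the 16 fell, against 6.38% over the genome, and 0 rose, against 8.51% (adjusted p under 0.05). The median ratio over the 16 bins was 0.789, and over all 329 bins tested it was 1.0012. Without MLX-DN replicates 1, 2 and 3 the number called was 2, 0 and 0, and without MLX-WT replicates 1, 2 and 3 it was 6, 2 and 8. The number at an unadjusted limma p under 0.05 was 13 of 16 with all libraries, against 95 of 329 over the genome. It was 13 or 14 with 1 library left out. With the genome-wide control level as the reference 0 bins were called and 13 of 16 were lower in MLX-DN. In the plot of control background by bin the 2 groups are separate in 14 of the 16 bins, and overlap at 40 to 45 and 90 to 95 Mb.

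**Figure D2:**
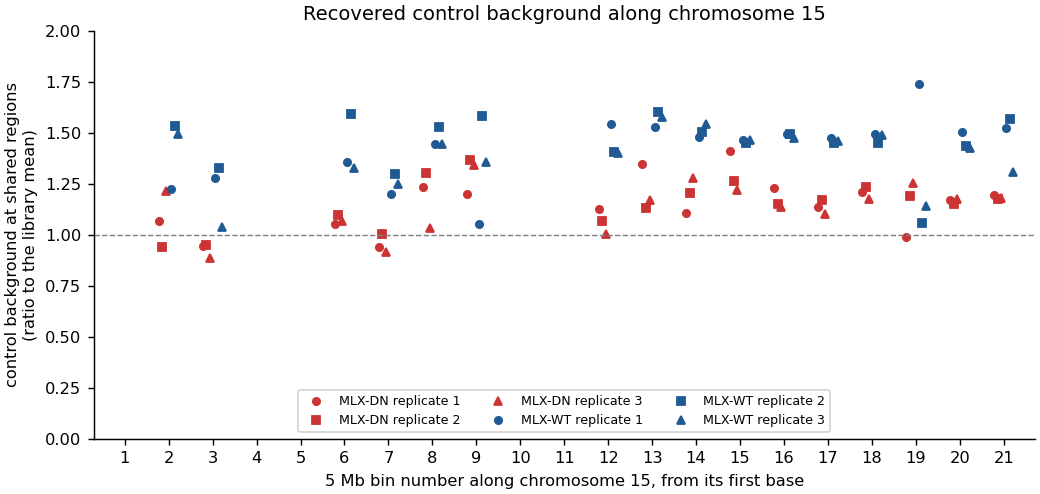
Control background recovered at regions listed by all 6 libraries, as a ratio to the library mean over all such regions (dashed line at 1), by 5 Mb bin of chromosome 15, 1 point per library (colour for group, shape for replicate). The groups do not overlap in 14 of 16 bins; bins 9 and 19, with 3 regions each, are the exceptions.

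The lowest ratio was 0.735, at 55 to 60 Mb, where 14 regions gave 1.13, 1.07 and 1.004 in MLX-DN against 1.54, 1.41 and 1.40 in MLX-WT (limma adjusted p = 0.0177). At 25 to 30 Mb, the bin with the highest ratio of peak share, background was among the lowest, at 1.06, 1.10 and 1.07 against 1.36, 1.59 and 1.33 (ratio 0.754, limma adjusted p = 0.0241). At 5 to 10 Mb it was 1.07, 0.943 and 1.22 against 1.22, 1.54 and 1.497 (ratio 0.758), which missed the threshold (limma adjusted p = 0.0541). The densest bin, at 75 to 80 Mb, had 57 shared regions and values of 1.23, 1.15 and 1.14 against 1.496, 1.498 and 1.47 (ratio 0.787, limma adjusted p = 0.0236).

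The 3 highest ratios came from bins with few shared regions. At 40 to 45 Mb, with 3 regions, background was 1.20, 1.37 and 1.34 in MLX-DN against 1.05, 1.58 and 1.36 in MLX-WT, which overlap (ratio 0.991, limma adjusted p = 0.965). At 90 to 95 Mb, again with 3 regions, it was 0.988, 1.19 and 1.26 against 1.74, 1.06 and 1.14 (ratio 0.888, limma adjusted p = 0.561). At 70 to 75 Mb, with 6 regions, it was 1.41, 1.26 and 1.22 against 1.46, 1.45 and 1.47, which do not overlap (ratio 0.887, limma adjusted p = 0.205). In each of the 2 bins of 3 regions, a library's background summed over regions was 25.8 to 48.0 control reads per 250 bp. In the densest bin this sum was 561 to 783.

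A direct test of segments compared the relative control background of each bin with the mean of its own chromosome within each library. Peak share was not tested in this way, and its log2 differences between the groups ran from −0.96 to 0.06 over 17 bins. On chromosome 15, 0 of 16 bins departed from that mean by limma (smallest adjusted p = 0.383), and 1 did at an unadjusted p under 0.05, the sparse bin at 40 to 45 Mb. That bin differed from the mean by 0.30 ± 0.13 (log2, limma SE), beside a mean over bins of −0.31. The test can thus miss a departure of that size in a bin of few regions. Over the genome 34 of 329 bins had an unadjusted p under 0.05, and 7 departed after adjustment, or 2.13%. The count on chromosome 15 was also 0 when any 1 library was left out, with bins of 10 Mb, with bins shifted by 2.5 Mb and in a fit blocked on replicate number. The log2 difference in background between the groups varied over the 16 bins with an SD of 0.11. This was close to the 0.106 that the spread between replicates gives for a single bin. The distal bins exceeded the proximal bins in background by 0.12 ± 0.033 on the log2 scale in MLX-DN, against 0.068 ± 0.13 for MLX-WT (SD, n = 3), values that overlap (exact permutation test, p = 0.60). Without MLX-WT replicate 2 the difference between the groups changed sign, from 0.05 to −0.013.

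Chromosome 8, where the mean difference had the opposite sign, was not uniform. All 7 bins that departed from their chromosome mean were there, and its ratios ran from 0.793 to 2.27, with an SD over bins of 0.43 on the log2 scale. On chromosome 11, which like chromosome 15 held a larger share of the MLX-WT peaks, 0 of 22 bins departed and the mean ratio over bins was 0.923, against 0.804 on chromosome 15. Over the 17 other chromosomes tested, chromosome 8 left out, the SD over bins ran from 0.088 to 0.16. The SD of chromosome 15 ranked 13 of 19 from the highest. A shift of 1 sign in every bin, with no bin called as departing, was not particular to chromosome 15. On chromosome 5 the mean ratio over bins was 1.24, with 10 of 21 bins called, 0 departing and 0 below 0 on the log2 scale. Chromosomes 3, 4 and 9 likewise had 0 bins below 0 and 0 departing, with mean ratios of 1.16, 1.14 and 1.20. Fewer of their bins were called, 2 of 14, 2 of 22 and 5 of 16.

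**Figure D3:**
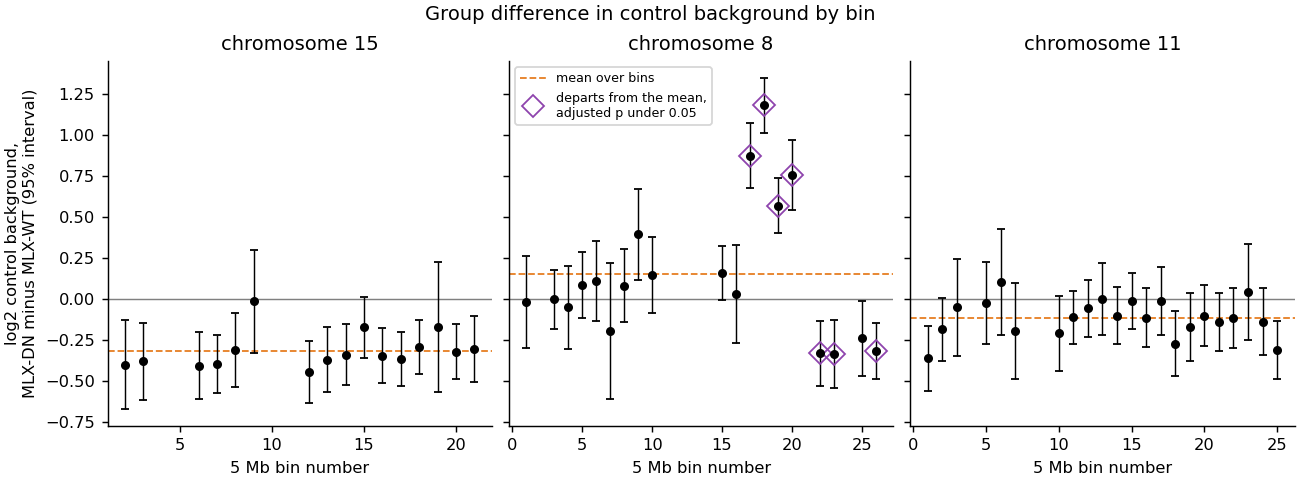
Log2 control background, MLX-DN minus MLX-WT, in 5 Mb bins of chromosomes 15, 8 and 11, with 95% intervals from limma and the mean over bins as a dashed line. All 16 bins of chromosome 15 lie below 0 and none is marked as departing from the mean, whereas 7 bins of chromosome 8 are.

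The median width of chromosome 15 peaks was 407, 433 and 423 bp in the MLX-DN replicates and 378.5, 432 and 392 bp in the MLX-WT replicates, which overlap (exact permutation test, p = 0.30). Peaks over 1 kb made up 7.25% ± 2.26 of those of MLX-DN and 4.43% ± 2.26 of those of MLX-WT (SD, n = 3), a ratio of 1.73 (exact permutation test, p = 0.20). In lists of equal length the ratio of median widths was 1.38 (exact permutation test, p = 0.20). The cut by −log10 q took nothing from MLX-WT replicate 1 and more from the MLX-DN lists than from the MLX-WT lists. The peaks compared were thus selected unequally, and the part of this in the ratio was not tested. In the 16 bins with at least 5 peaks in every library, group means of the median width lay between 379 and 461 bp in MLX-DN, and between 352 and 454 bp in MLX-WT. The groups were apart in 1 of the 16, against 23% of bins over the genome. That bin, at 70 to 75 Mb, had 354, 397 and 385 bp in MLX-DN against 429, 463 and 427 bp in MLX-WT. The mean of MLX-DN exceeded that of MLX-WT in 12 of the 16.

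The authors' fold, the ChIP pileup over the control background, had a median of 3.54, 3.74 and 3.45 in the MLX-DN replicates and 3.31, 3.47 and 3.44 in the MLX-WT replicates (exact permutation test, p = 0.20). In lists of equal length the ratio of median folds was 1.23, against 1.05 in the full lists (exact permutation test, p = 0.30 at equal length). The unequal cut described for width applies here too. Over 16 bins the MLX-DN mean of the median fold was the higher each time, but the groups were apart in 1 bin only, against 11.2% over the genome. That was the bin at 5 to 10 Mb, with 3.76, 4.10 and 3.97 in MLX-DN against 3.73, 3.60 and 3.51 in MLX-WT. Chromosome 15 peaks had low folds for their lists. The median of their fold percentile within the own list was 39.0, 40.1 and 40.6 in MLX-DN against 29.4, 27.9 and 34.2 in MLX-WT (exact permutation test, p = 0.10, adjusted p = 0.233). By −log10 q, which also grows with the number of reads, the median percentile was 51.2 ± 0.655 for MLX-DN against 54.6 ± 2.59 for MLX-WT (SD, n = 3; exact permutation test, p = 0.10). Few chromosome 15 peaks stood on the genome-wide control level, 1.42% ± 0.317 of those of MLX-DN and 0.239% ± 0.201 of those of MLX-WT, while on the other autosomes these were 4.02% ± 1.69 and 3.37% ± 1.73.

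**Figure D4:**
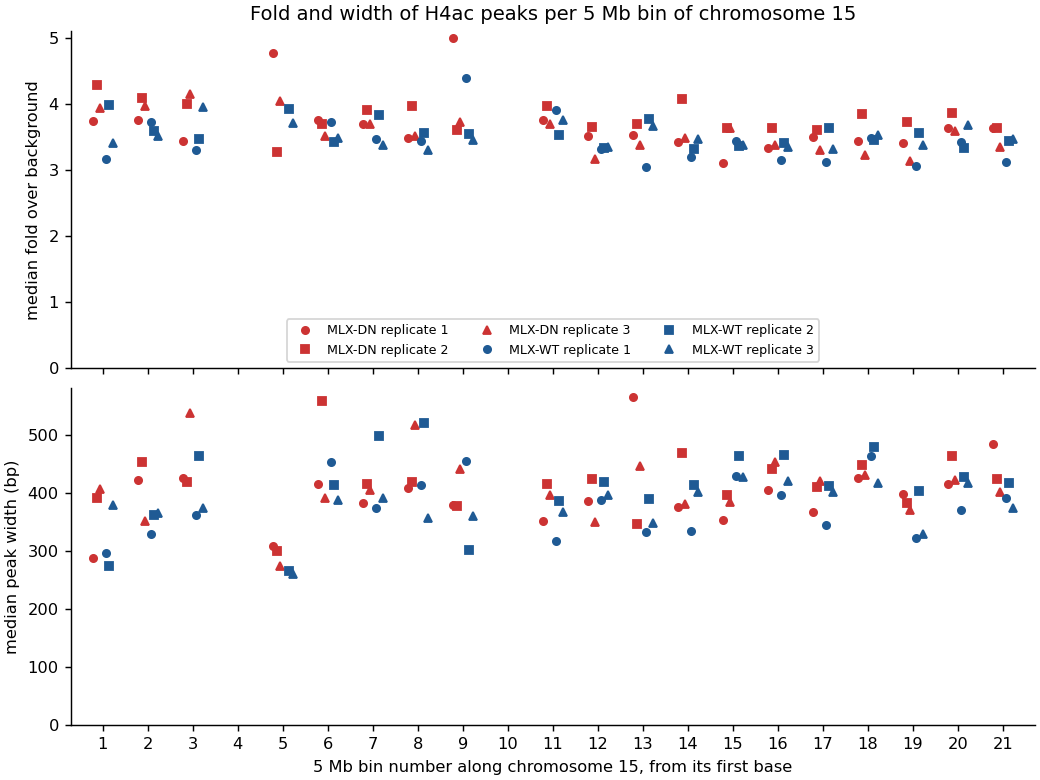
Median fold over control background (upper panel) and median width in bp (lower panel) of listed H4ac peaks in each 5 Mb bin of chromosome 15, 1 point per library (colour for group, shape for replicate). The libraries of the groups intermingle in most bins; bins 1, 5 and 9 hold under 5 peaks in at least 1 library and were not compared.

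At single regions, relative to the library mean, 235 of the 253 had lower background in MLX-DN, against 1610 of all 3107, with a median log2 difference of −0.35 against −0.02 over all 3107. Against the genome-wide control level 156 of the 253 were lower, with a median of −0.08, and limma called 0. Relative to the library mean, the groups were apart in 82 of the 253 with MLX-DN the lower, against 8.37% over the genome. By limma on that scale 2 regions fell, against 0.129% over the genome. The count was 0 without MLX-DN replicate 1 or MLX-WT replicate 2 or 3, and 1 without MLX-DN replicate 2 or 3 or MLX-WT replicate 1. The first, from 3928852 to 3929743, had 9.25, 10.0 and 15 control reads in MLX-DN against 23, 18 and 19 in MLX-WT (log2 −1.06 ± 0.27, limma adjusted p = 0.0253). Its ChIP reads were 79, 94 and 75 against 70, 104 and 71, and overlapped. The second, from 84021956 to 84023341, had 7.50, 9.0 and 8.75 control reads against 14, 16 and 14 (log2 −1.03 ± 0.27, limma adjusted p = 0.0363), with folds of 6.30, 6.04 and 6.72 against 2.95, 4.17 and 3.72.

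ChIP reads at the summit depended on what they were divided by. Per unit of ChIP depth, the median log2 difference over the 253 regions was 0.09, MLX-DN being the higher, against 0.35 over all 3107. By limma 32 regions rose, against 52.5% over the genome, and 10 fell, against 0.708%. The 42 calls became 27 without MLX-DN replicate 3. Relative to the library mean, a scale chosen after the data had been seen, the median was −0.27 against −0.02 over all regions. On that scale 73 chromosome 15 regions fell, against 6.24% over the genome, and 1 rose, against 6.57%. The 73 regions were spread over 15 bins, and the median over regions was below 0 in all 16 bins with at least 3 of them, from −0.44 to −0.05. Divided by the control background of the same region, the median was 0.18 against 0.096 over all regions, and limma called 0 regions on chromosome 15, as it did over the genome (0%). The median standard error on chromosome 15 was 0.34 on this scale (log2), against 0.14 per unit of ChIP depth. Differences of the size called per depth could therefore be missed here. At an unadjusted limma p under 0.05 the number was 16 of 253 on chromosome 15, against 141 of 3107 over the genome.

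**Figure D5:**
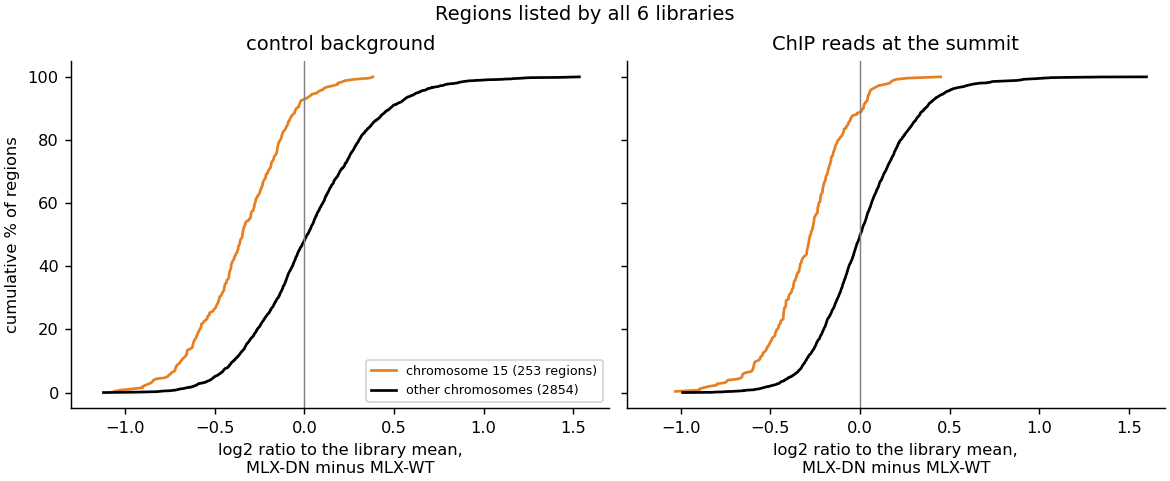
Cumulative distribution over regions listed by all 6 libraries of the log2 difference, MLX-DN minus MLX-WT, in control background (left) and ChIP reads at the summit (right), each relative to the library mean; orange for the 253 regions of chromosome 15, black for those of other chromosomes. Both orange curves lie to the left of the black ones, with medians of −0.35 and −0.27.

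Among regions called by ChIP reads per depth, the widest shared region of the chromosome, 3899 bp from 102999126 to 103003024, had 69, 83 and 92 reads in MLX-DN against 53, 59 and 42 in MLX-WT. The groups did not overlap and the reads rose by 0.63 ± 0.14 on the log2 scale (limma adjusted p = 0.000542). Its control reads were 10.0, 11 and 13 against 18.3, 14 and 10.5, which overlap. Over the library mean the rise was 0.27 and missed the threshold (limma adjusted p = 0.203). Divided by its control background the rise was larger, 0.90 ± 0.34, and missed the threshold as well (limma adjusted p = 0.848). The second widest, 3140 bp from 77627614 to 77630753, had 53, 56 and 50 ChIP reads against 35, 41 and 36, a rise of 0.47 ± 0.14 (limma adjusted p = 0.00532). It too missed the threshold over the library mean (log2 0.10, limma adjusted p = 0.661). The third, 3002 bp from 34298291 to 34301292, had 35, 40 and 42 reads against 36, 41 and 32, which overlap (limma adjusted p = 0.676).

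The strongest shared regions ranked high in every list, with folds that overlapped between the groups. At 78857824 to 78859382 the folds were 7.44, 8.49 and 8.15 in MLX-DN against 5.74, 7.61 and 7.80 in MLX-WT, with 110, 124 and 125 ChIP reads against 107, 109 and 97, each MLX-DN library being just above each MLX-WT library. At 36722343 to 36724523 the folds were 6.29, 9.51 and 8.19 against 5.46, 10.01 and 7.50, with 113, 139 and 110 ChIP reads against 126, 133 and 108. For both the ChIP reads per depth missed the threshold (log2 0.16 ± 0.14 and −0.06 ± 0.14, limma adjusted p = 0.318 and 0.730). The other 3 of the top 5 began at 81415784, 100057290 and 85500196, with folds between 5.29 and 9.61 and a lowest percentile of 98.9 in any list. Over the library mean, ChIP reads were called lower in MLX-DN at the regions from 36722343, 81415784 and 85500196 (log2 −0.43, −0.40 and −0.40, limma adjusted p = 0.0345, 0.0427 and 0.0465).

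Regions seen in a single library made up 42.2% of the 1861 (785 regions, exact 95% interval 39.9 to 44.5, which covers counting error only), against 42.9% over the genome. Of them 550 came from an MLX-DN library and 235 from an MLX-WT library. Both groups listed 809 regions, or 43.5%. Regions listed by MLX-WT libraries only were 14.6% on chromosome 15 (271 regions, exact 95% interval 13.0 to 16.2) and 9.70% over the genome. Regions listed by MLX-DN libraries only were 42.0% (781) and 51.5%.

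A further 73 regions were listed by each MLX-DN library and by none of MLX-WT (3.92%), against 6.1% over the genome. These 73 lay in 15 bins, with 14 in the densest bin at 75 to 80 Mb and 9 at 55 to 60 Mb, and 23 of them had an MLX-WT peak within 1 kb. The count became 170 and 125 without MLX-DN replicates 1 and 3, 141 without MLX-WT replicate 2, and 14 in lists of equal length. The strongest ran from 25886956 to 25887846, with folds of 6.84, 9.76 and 4.28 and 6.00, 4.40 and 10.0 control reads, and the nearest MLX-WT peak was 23720 bp away. The next, 2503 bp from 78313322 to 78315824, had folds of 3.89, 6.12 and 3.92, with the nearest MLX-WT peak at 24404 bp. Of the other 3 named regions, those from 96435086 and 101201424 had an MLX-WT peak within 1 kb, at 375 and 636 bp, and that from 34265236 one at 13076 bp.

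The opposite pattern was found at 10 regions, or 0.537%, against 0.166% over the genome. Leaving out MLX-DN replicate 2 gave 16 and leaving out MLX-WT replicate 1 gave 28. The count was 5 at a −log10 q of at least 5 and 25 in lists of equal length. The strongest, from 11104017 to 11104805, had 63, 69 and 67 ChIP reads over 16.5, 18 and 13 control reads in MLX-WT replicates 1, 2 and 3, with folds of 3.31, 3.44 and 4.93, and no MLX-DN peak within 109048 bp. The second and the fourth in rank were neighbours, from 34722972 to 34723617 and from 34719418 to 34719903, whose nearest MLX-DN peaks were 297875 and 294321 bp away. Their folds were 3.48, 3.14 and 2.99, and 3.75, 4.21 and 4.05. The third and the fifth had MLX-DN peaks nearer by, at 10059 bp for that from 7068321 to 7068839 and at 196 bp for that from 101808130 to 101808964.

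These distances led to a count, chosen after the values had been seen, of peaks more than 100 kb from any peak of the other group. On chromosome 15 such were 57 of 2090 MLX-WT peaks, or 2.73%, against 1.15% over the genome, and 46 of 3285 MLX-DN peaks, or 1.40%, against 4.76%. The MLX-WT share ranked 1 of 19 autosomes from the highest and the MLX-DN share 19 of 19. The 2 groups differ in the number of peaks to be near to, and the part of list length in these shares was not tested.

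The 57 MLX-WT peaks formed 22 stretches, of which 13 were a single peak. The stretch from 8579512 to 8623798 held 11, with 8 from MLX-WT replicate 2, 3 from replicate 3 and 0 from replicate 1. A second, from 8736301 to 8808141, held 7, with 3 from replicate 1 and 4 from replicate 2. That from 34677793 to 34724975 held 10 peaks, 3, 3 and 4 in replicates 1, 2 and 3, and includes the pair of neighbours above. The 46 MLX-DN peaks formed 17 stretches, the fullest of them from 55045314 to 55068603 with 2, 4 and 3 peaks in MLX-DN replicates 1, 2 and 3.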

How the data were processed

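Peak lists of 6 H4ac ChIP-seq libraries were used, 3 MLX-DN and 3 MLX-WT, grouped and numbered by their titles; the 6 input libraries have no file of their own here. The submitters' processing notes name the build mm9 and, with no roles or settings, MACS2 2.0.9 and BWA 0.5.9-r26, beside SAMtools, Picard 1.65, CASAVA and R 2.14.0. Each list is of 1 library. Per peak, the authors deposited a ratio (fold over control background), a −log10 p-value, a −log10 q-value and a score that repeats the −log10 q, multiplied by 10 and cut to a whole number.

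Reads were recovered from fold and p. With 1 scale factor per library, 100.0% of peaks gave a whole number of ChIP reads within 0.001 of the −log10 p. In 5 libraries 1 control read counted as 1 and in MLX-WT replicate 3 as 0.9844. In these units the recovered control background fell, for all but at most 0.0106% of a list's peaks, on the steps that windows of 250 bp, 1 kb and 10 kb give, or on 1 lowest value per list, taken as the genome-wide control level. Control reads in the text are given per 250 bp, without that weight. A value on a 1 kb or 10 kb step is thus the count of that window scaled down to 250 bp. The sources used here do not give the library that served as control.

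Union regions, bins and tests follow the text. Single values were compared on the log2 scale (percentages of peaks at the genome-wide level and percentiles as differences) by exact permutation over 20 assignments. Bins and shared regions were fitted with limma 3.58.1 in R 4.3.3 over the whole genome, with Benjamini-Hochberg adjustment. Bins needed 3 shared regions, or 5 peaks per library on average with a pseudocount of 1. Chromosomes 8 and 11 were set beside chromosome 15 for their background and share.

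Named regions were the 5 shared ones whose weakest rank by −log10 q over the lists was best, the 5 highest in the same way of each one-group pattern, and the 3 widest shared regions. Named bins were the 3 highest and 3 lowest ratios of background and of share, and the densest and emptiest. Regions of 1 stretch share control reads and are not independent. The chromosome, the lists and the tests were chosen with earlier results of these data known. The pipeline was tested on simulated data. Python 3.11.15, NumPy 2.4.6, SciPy 1.17.1 and pandas 2.3.3 were used.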

Additional observations from a re-analysis of the deposited data

How the results depend on the processing

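Under the alternatives run, the lower share and lower relative background of chromosome 15 in MLX-DN kept their direction, and no exact test could pass 0.05. Lists of equal length turned the log2 difference in peak number to −0.39, as they remove the difference in list length. With 1 library left out, the difference in background between distal and proximal bins ranged from −0.013 to 0.091. Called background bins numbered 0 to 8 with 1 library left out, 0 against the genome-wide level and 1 where a single region sufficed per bin. Called share bins numbered 0 to 4, 0 at a −log10 q of at least 5 and 0 at equal length. Regions called by background numbered 0 to 1, 0 against the genome-wide level and 1 where a peak had to span 50% of its region. Those called by ChIP reads numbered 27 to 51, 19 with that cover, 0 over the background and 74 over the library mean (added after seeing the data). Regions found in each MLX-DN list and none of MLX-WT came to 77 to 170 with 1 library left out and 14 at equal length, and the opposite 11 to 28, 5 at a −log10 q of at least 5 and 25 at equal length. Fewer libraries, peaks or regions enter with 1 library left out, at the −log10 q limit, at equal length and with the 50% cover. More bins enter where a single region suffices. The genome-wide level and the library mean change the scale only, on the same libraries, bins and regions. The division by background keeps the libraries and regions but brings in a separate control value for each region and library. With it the median standard error on chromosome 15 was 0.34 (log2), against 0.14 for ChIP reads per depth. The cause of the changes in count was not tested.

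Single bins and regions of small difference changed sign. Background at 40 to 45 Mb ranged from −0.18 to 0.12 with 1 library left out and was 0.25 against the genome-wide level, where the bins at 70 to 75 and 90 to 95 Mb gave 0.092 and 0.094. The share at 25 to 30 Mb ranged from −0.042 to 0.18. Background at the regions from 100057290 and 34298291 became 0.049 and 0.074 against the genome-wide level. ChIP reads at the region from 36722343 ranged from −0.097 to 0.0073 with 1 library left out. Over the background they became 0.097 there, 0.21 at 81415784 and −0.0043 at 34298291, and over the library mean −0.21 at 78857824, −0.18 at 100057290 and −0.30 at 34298291.

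The labels do not say whether equal replicate numbers mark libraries handled together, and the main tests treat the libraries as unpaired. Deviations of same-numbered libraries correlated at 0.036 to 0.136 for peak share in bins and 0.022 to 0.039 for regional background. For ChIP reads they correlated at −0.036 to −0.0093. All 6 libraries correlated best with their own number for share and background, and 0 did for ChIP reads. With the replicate number as a block, 13 of 16 bins were called for background, against 18.5% over the genome in either direction. For share 5 of 17 were called, against 20.05%, and 0 of 16 departed, against 2.74%. Of the 253 regions 3 were called for background, against 1.32% over the genome, and 41 for ChIP reads, against 51.2%. Peak number and background kept log2 differences of 0.70 and −0.34 (exact sign-flip test, p = 0.25, the smallest that 3 pairs allow). Control background rests on few reads at a single region, with a standard error of 0.27 in the median region (log2). The only 2 chromosome 15 regions called for background differed by −1.06 and −1.03. No smaller difference passed limma at a single region, while the median over the 253 regions was −0.35.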
